A study of Mus musculus with 24 samples.

Results

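The genes of DNA replication and S phase were followed in RNA from sorted mouse brain microglia with and without Dicer1 deletion. The list has 50 members, named from textbook knowledge of the replication machinery and found in the deposited table by symbol through its Ensembl gene identifiers. All 50 were found among 49315 identifiers, and all 50 were among the 17579 genes with enough counts to be tested. They fall into 8 role groups: origin recognition and licensing (12 genes), helicase activation (4), the sliding clamp and its loader (6), polymerases and primase (9), single-strand binding, flap cutting and ligation (5), chromatin assembly and methylation upkeep (3), nucleotide supply (5) and the regulators of the step from G1 to S (6).

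Replication is prepared in G1, when the origin recognition complex, Cdc6 and Cdt1 load the Mcm helicase onto origins, and geminin (Gmnn) blocks a further round of loading. Cyclin E and the E2F transcription factors commit the cell to S phase, Cdc45 and the GINS proteins switch the helicase on, primase and the polymerases copy the strands, and ribonucleotide reductase and its partners supply the nucleotides. Microglia are long-lived brain macrophages that renew themselves slowly in the healthy adult brain and divide when myelin is damaged, so these genes are usually at a low level in them.

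The 24 libraries were in 8 groups of 3. Cells had been sorted from the brain by flow cytometry as CD45int CD11b+ microglia. Cre+ mice carried a tamoxifen-activated recombinase at the fractalkine receptor locus (Cx3cr1 creERT2) and had Dicer1 deleted on tamoxifen; the Cre- mice received tamoxifen too and served as wild type. Naive mice had tamoxifen alone. The demyelination groups were on cuprizone, a copper chelator that kills myelin-forming cells, for 6 weeks. Both remyelination groups had 6 weeks of cuprizone and then 6 weeks of normal diet. Tamoxifen is labelled as given at the start in naive, demyelination and the first remyelination state. For the latter 2 the series text puts it at 4 to 5 weeks, without saying from when those weeks count. In the last state it was given at the peak, in week 5 of cuprizone. The series text calls the 3 samples of a group biological replicates; whether animals were pooled is not given. The recombinase is driven by a locus that other brain macrophages also express.

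Library totals, in M (mega) counts, ranged from 19.48 to 44.53 in naive and from 21.87 to 32.71 in demyelination. They were 8.87 to 12.56 M counts in the start state of remyelination and 8.94 to 12.09 M counts in the peak state. The remyelination libraries were thus shallower, and their state and their library set cannot be told apart. CPM below are counts per M counts, with library sizes scaled by the trimmed mean of M values (TMM). Summed exon counts of Dicer1, which do not isolate the deleted part, were 18.6, 11.1 and 12.1 CPM in Cre- and 21.8, 22.1 and 24.3 CPM in Cre+ in naive libraries, and they check nothing about the deletion. Cx3cr1 was at 227, 4432 and 4571 CPM in naive Cre+ libraries, against 9273, 9692 and 12250 CPM in naive Cre-. In demyelination it was at 104, 2312 and 89.6 CPM in Cre+, against 5277, 5318 and 6139 CPM in Cre-. In the start state it was at 3580, 3463 and 4309 CPM in Cre+, against 7369, 6510 and 7932 CPM in Cre-. In the peak state it was at 3742, 3585 and 3651 CPM in Cre+, against 7228, 6882 and 9098 CPM in Cre-. Naive Cre+ replicate 1 and demyelination Cre+ replicates 1 and 3 thus stood apart as libraries of low Cx3cr1. The microglia markers P2ry12, a purinergic receptor, and Tmem119, a membrane protein, were present in every library, at 3372 to 13320 CPM and at 1492 to 6702 CPM. Fcrls, another microglia marker, was at 4673, 5310 and 4909 CPM in naive Cre- and 1362, 2572 and 2281 CPM in naive Cre+. In RNA from bulk cells, fewer cells of a kind and less RNA per cell cannot be told apart.

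In remyelination after tamoxifen at the peak, most of the 50 members were higher in Cre+ than in Cre- microglia. Fewer were in demyelination. In naive 33 were not called and 3 of the called ones were lower, and after tamoxifen at the start 0 were called. A gene is called higher or lower where edgeR's quasi-likelihood test gave an adjusted p under 0.05 (Benjamini-Hochberg over 17579 genes). In naive microglia 14 members were called higher and 3 lower in Cre+. Of all genes tested there, 14.7% were called higher and 13.7% lower, and the median log2 change was 0.17 over members and -0.01 over all genes. In demyelination 20 members were called higher and 0 lower, where 5.69% of all genes were called higher. The median was 0.49 over members and -0.01 over all genes. With tamoxifen at the peak 36 members were called higher and 0 lower, where 6.99% of all genes were called higher, with a median of 0.93 against -0.01. After tamoxifen at the start 0 members were called by edgeR, where 0.0341% of all genes were called in either direction. There 2 members had an unadjusted p under 0.05, Pcna and Ccne2, DESeq2 called 1 (Pcna, lower), and the median was -0.09 against -0.04.

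Every Cre+ library was above every Cre- library for 39 of the 50 members at the peak (14.3% of all genes) and for 39 in demyelination (16.4% of all genes). The same held for 10 of 50 in naive, where the share over all genes was 19.7%, close to that of the members, and for 0 after tamoxifen at the start. In the other direction, every Cre+ library was below every Cre- library for 6 members after tamoxifen at the start. That count was 3 in naive, 2 in demyelination and 1 at the peak. The shares over all genes were not computed for the start state or for this direction. Without a test, the mean of log2(CPM + 0.5) over the members gives the level of the whole list in each library. It was 3.02 ± 0.084 in naive Cre- (SD, n = 3) and 3.30 ± 0.429 in naive Cre+. The wide spread came from replicate 1, at 2.81, below every naive Cre- library. In demyelination it was 3.55 ± 0.074 in Cre- and 4.09 ± 0.028 in Cre+. It stood at 2.82 ± 0.08 and 2.73 ± 0.056 in Cre- and Cre+ after tamoxifen at the start, and at 2.64 ± 0.082 and 3.72 ± 0.127 after tamoxifen at the peak.

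**Figure D1:**
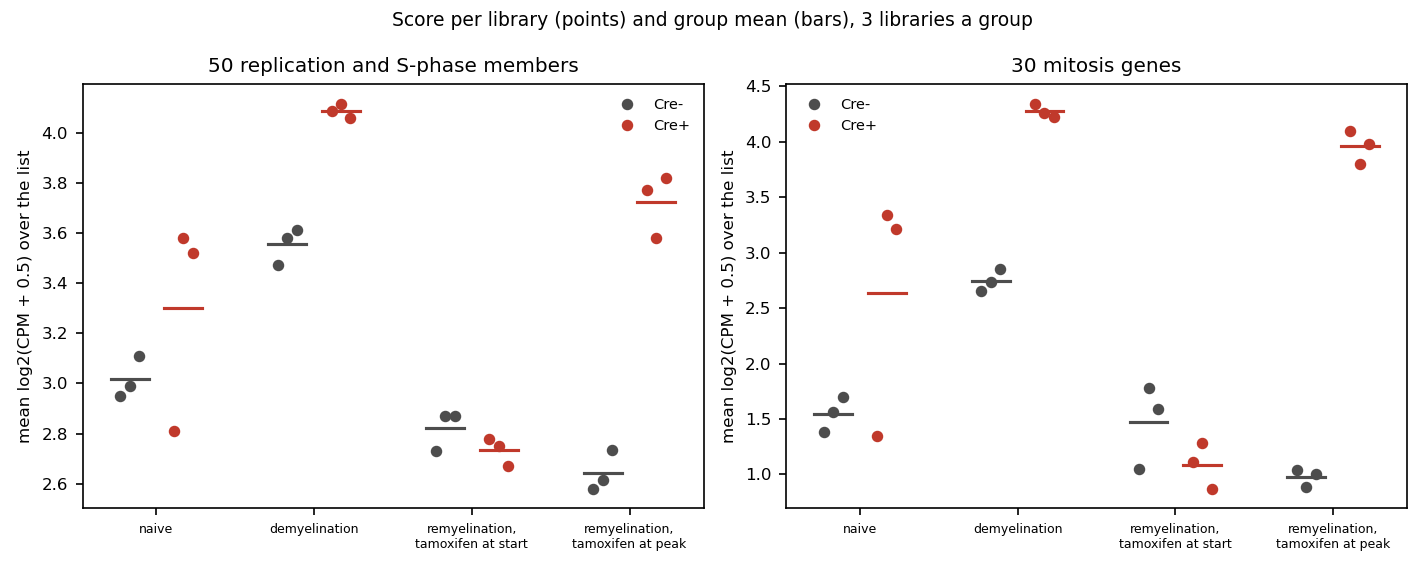
Mean of log2(CPM + 0.5) over the 50 replication and S-phase members (left) and over 30 mitosis genes (right) in each of the 24 libraries (points, with group means as bars, 3 libraries a group; Cre- grey, Cre+ red), by state on the x axis. In demyelination and after tamoxifen at the peak the Cre+ libraries lie above the Cre- libraries, and in naive the Cre+ replicate 1 lies at 2.81 on the left axis.

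Among the 4 genotype comparisons, leaving out single libraries lowered the demyelination count most. There 6 members were called without Cre- replicate 1 or without Cre+ replicate 1, 10 without Cre- replicate 2, Cre- replicate 3 or Cre+ replicate 3, and 5 members (Gins1, Prim2, Rrm1, Tk1 and Ccne2) were called without any 1 library. Without the 3 libraries of low Cx3cr1, which leaves demyelination Cre+ with 1 library whose spread is taken from the other groups, 4 members were called (Prim1, Rrm2, Tk1 and Ccne2). At the peak 27 of the 36 calls held without any 1 library. In naive 8 of the 17 did (Mcm10, Gins1, Prim2, Tk1, E2f1 and E2f7 higher, Rfc2 and Pold2 lower), the count fell to 10 without Cre+ replicate 2 and to 11 without Cre- replicate 2, and it was 25 without the low Cre+ replicate 1.

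Markers of other cells moved with some of these comparisons. At the peak the 7 neutrophil markers (S100a8, S100a9, Ngp, Camp, Ltf, Elane and Mpo) summed to 439.7 to 5190 CPM among Cre+ libraries, against 174.7 to 282 CPM among Cre- libraries, with 2 of 7 called higher. S100a8, a neutrophil calcium-binding protein, was at 77.1, 50.9 and 80.3 CPM in Cre- and 139.7, 125 and 1301 CPM in Cre+ libraries there, so 1 library held most of that signal. Without that library, Cre+ replicate 3, 30 members were still called higher at the peak. In demyelination the neutrophil sum was 1326 to 1673 CPM among Cre+ libraries, against 197.9 to 880.2 CPM among Cre- libraries, with 0 of 7 called. The 5 monocyte markers summed to 307.8 to 606.3 against 185.8 to 271.1 CPM there, with 1 called higher and 2 lower. Most of that Cre+ sum was Fn1, at 123.8, 161.9 and 88.35 CPM in Cre- and 560.5, 272.4 and 361.7 CPM in Cre+. The median log2 change of the 5 was -1.22, opposite in direction to their sum. At the peak 1 monocyte marker was called higher and 0 lower, and in naive 1 higher and 1 lower. In the start libraries the neutrophil sum was 360.6 to 1053 CPM among Cre+ libraries, against 506 to 3894 CPM among Cre- libraries, and in naive it was 127.4 to 509.4 CPM among Cre+ libraries, against 164.1 to 491.5 CPM among Cre- libraries. The other lists (border macrophages, T, NK and B cells, oligodendrocytes and their precursors, astrocytes, endothelial and erythroid cells) had 1 called higher and 1 lower at most for a list in a state, except border macrophages in demyelination with 2 of 5 lower. Of 6 microglia markers 0 were called higher and 1 lower in naive, and 0 were called in any other state. No defining marker was at 0 in all libraries of a group except 1 of the lymphoid markers in each naive group. The part of these cells in the member changes was not tested.

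**Figure D2:**
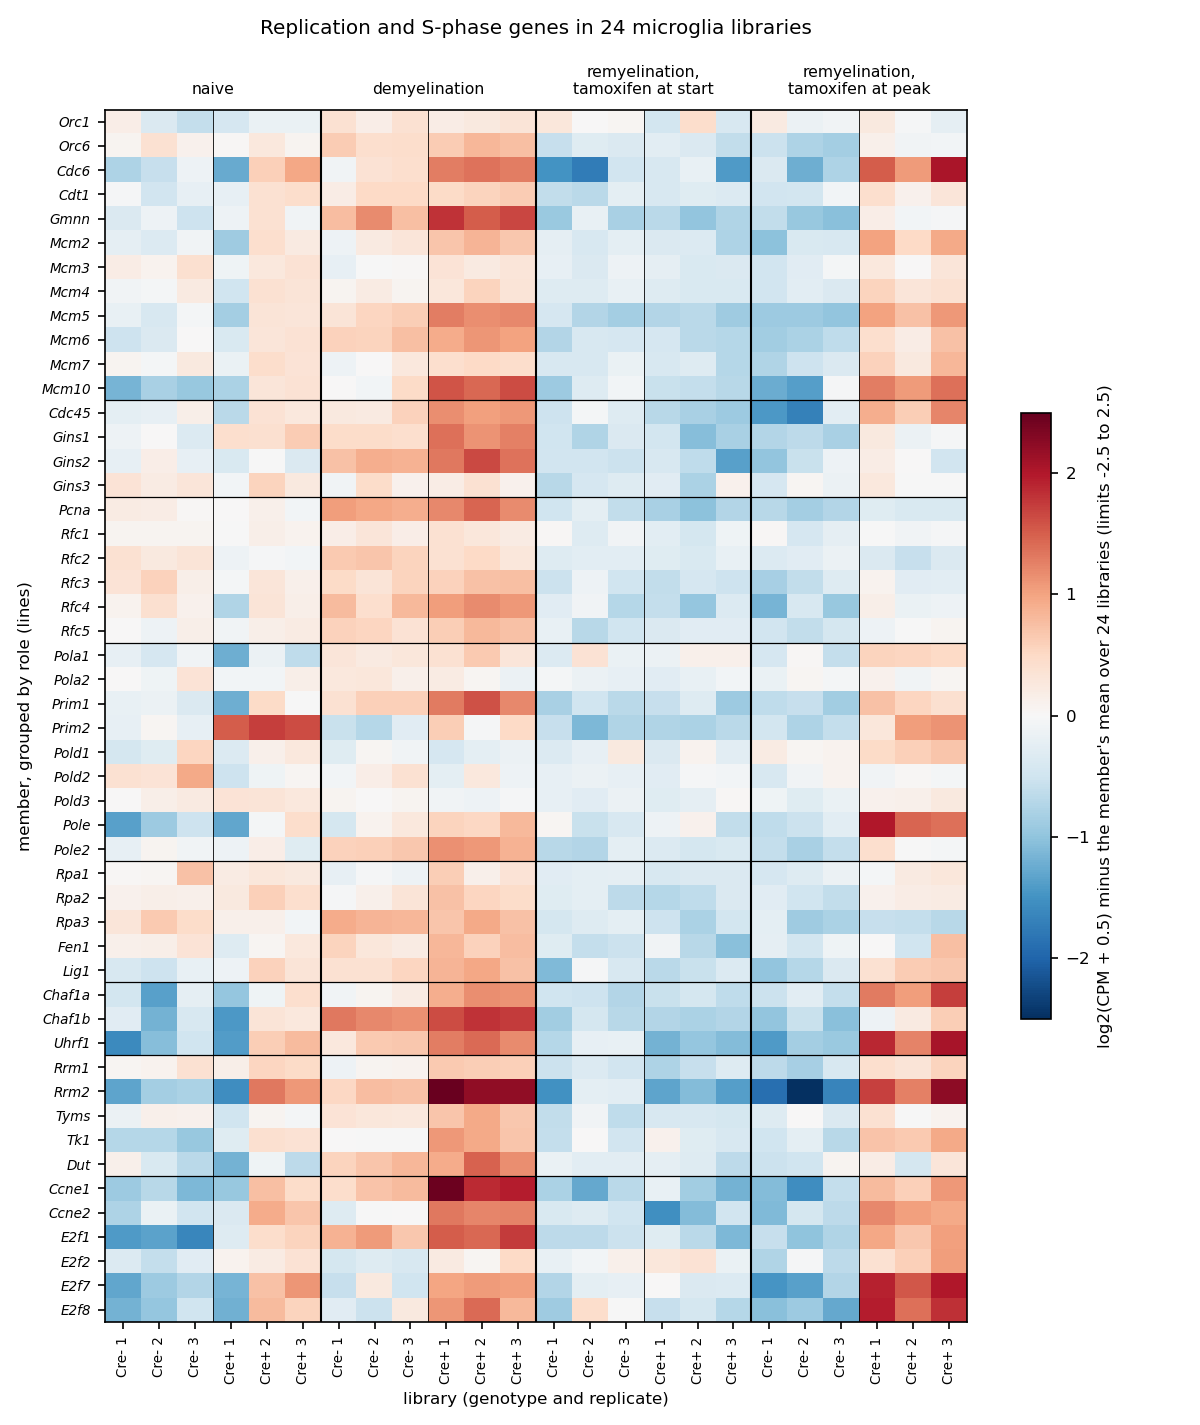
Level of each of the 50 members (rows, by role group between lines) in each of the 24 libraries (columns, by state, genotype and replicate), as log2(CPM + 0.5) minus the member's mean over all libraries, with colour limits of -2.5 and 2.5. Most rows lie above their mean in the demyelination Cre+ libraries, Rrm2, Uhrf1, E2f7 and E2f8 also stand out in the peak Cre+ libraries, and Prim2 is highest in all 3 naive Cre+ libraries.

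Regulators of the step from G1 to S were the role group in which every gene was called higher in naive, in demyelination and at the peak. All 6 (Ccne1, Ccne2, E2f1, E2f2, E2f7 and E2f8) passed in each of these states, with median log2 changes of 1.72, 1.52 and 2.35. Of all genes, 14.7%, 5.69% and 6.99% were called higher there. When any 1 library was left out, all 6 calls held at the peak. Only those of E2f1 and E2f7 did so in naive, and only that of Ccne2 in demyelination. After tamoxifen at the start 0 of 6 passed and the median was 0.09. Their levels were low: per kilobase of exon, the mean over all libraries ran from 0.184 CPM for E2f7 to 3.13 CPM for E2f1, against 27.3 CPM for Pcna, the highest member.

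E2f1 (chromosome 2, 154559407 to 154569892, minus strand, GRCm38) encodes the transcription factor that switches on most replication genes when the retinoblastoma protein releases it. In naive libraries it was at 2.58, 2.73 and 2.14 CPM in Cre- and 6.08, 10.7 and 11.6 CPM in Cre+. In demyelination it was at 14.4, 16.6 and 12.6 CPM in Cre- and 23.1, 21.6 and 26.99 CPM in Cre+. E2f1 was at 4.71, 4.71 and 5.12 CPM in Cre- and 6.11, 4.66 and 3.28 CPM in Cre+ with tamoxifen at the start and at 5.02, 3.60 and 4.36 CPM in Cre- and 15.51, 12.6 and 16.3 CPM in Cre+ with tamoxifen at the peak. The Cre+ libraries were above all Cre- libraries in naive, demyelination and peak, including naive Cre+ replicate 1, and the groups overlapped after tamoxifen at the start. The log2 change was 1.93 ± 0.22 (SE, n = 3 per group, edgeR adjusted p = 8.59e-07) in naive, 0.71 ± 0.20 (adjusted p = 0.0221) in demyelination and 1.78 ± 0.22 (adjusted p = 1.12e-05) at the peak. E2f2, a second activating E2F, was at 5.87, 4.85 and 6.14 CPM in Cre- and 8.003, 8.84 and 9.85 CPM in Cre+ in naive libraries. E2f2 was at 5.43, 5.92 and 5.63 CPM in Cre- and 8.91, 7.83 and 10.9 CPM in Cre+ in demyelination. E2f2 was at 6.58, 7.20 and 8.30 CPM in Cre- and 9.24, 9.84 and 6.72 CPM in Cre+ with tamoxifen at the start and at 4.26, 7.41 and 4.61 CPM in Cre- and 10.04, 11.6 and 16.1 CPM in Cre+ at the peak. It rose by the smallest amount of the group, by 0.67, 0.70 and 1.20, with no overlap between genotypes in naive, demyelination and peak and an overlap in the start state.

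E2f7 and E2f8 encode atypical E2F proteins that repress the same target genes late in S phase, so the group holds repressors as well as activators. They showed the largest log2 changes of the group at the peak. E2f7 went from 0.0947, 0.141 and 0.494 CPM in Cre- to 5.75, 4.30 and 6.11 CPM in Cre+, a change of 4.42 ± 0.66 (SE, n = 3 per group, edgeR adjusted p = 9.62e-05), or 21.5-fold. Its Cre- libraries held only 1, 2 and 6 counts, so the size of the fold is loosely known. E2f8 went from 0.473, 0.564 and 0.329 CPM to 7.30, 4.73 and 6.68 CPM, a change of 3.74 ± 0.57 (SE, n = 3 per group, edgeR adjusted p = 0.000124). In naive E2f7 was at 0.165, 0.371 and 0.495 CPM in Cre- and 0.234, 2.25 and 3.04 CPM in Cre+, so Cre+ replicate 1 lay among the Cre- libraries and the other Cre+ replicates above them.

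Cyclin E (Ccne1 and Ccne2) binds Cdk2 and triggers entry into S phase. Ccne2 (chromosome 4, 11191351 to 11204779, plus strand) was at 2.42, 3.95 and 3.07 CPM in Cre- and 3.37, 8.96 and 7.54 CPM in Cre+ in naive libraries. Ccne2 was at 3.45, 4.43 and 4.49 CPM in Cre- and 11.9, 11.1 and 11.3 CPM in Cre+ in demyelination. Ccne2 was at 3.34, 3.47 and 3.02 CPM in Cre- and 1.22, 1.84 and 3.04 CPM in Cre+ with tamoxifen at the start and at 1.80, 3.17 and 2.63 CPM in Cre- and 10.9, 9.63 and 9.03 CPM in Cre+ with tamoxifen at the peak. The genotypes did not overlap in demyelination and at the peak. They overlapped in naive, through Cre+ replicate 1, and after tamoxifen at the start, where the Cre+ values reached below the Cre- ones. The log2 change was 1.07 ± 0.28 (SE, n = 3 per group, edgeR adjusted p = 0.00468) in naive, 1.47 ± 0.28 (adjusted p = 0.00184) in demyelination, -0.69 ± 0.33 (adjusted p = 0.516) in the start state and 1.94 ± 0.31 (adjusted p = 0.000139) at the peak. Exons of Ints8 on the other strand cover 17.4% of the Ccne2 exons, and the strand setting of the counting is not given in the sources used here. Ccne1 changed by 1.78, 1.64 and 2.77 in naive, demyelination and peak.

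**Figure D3:**
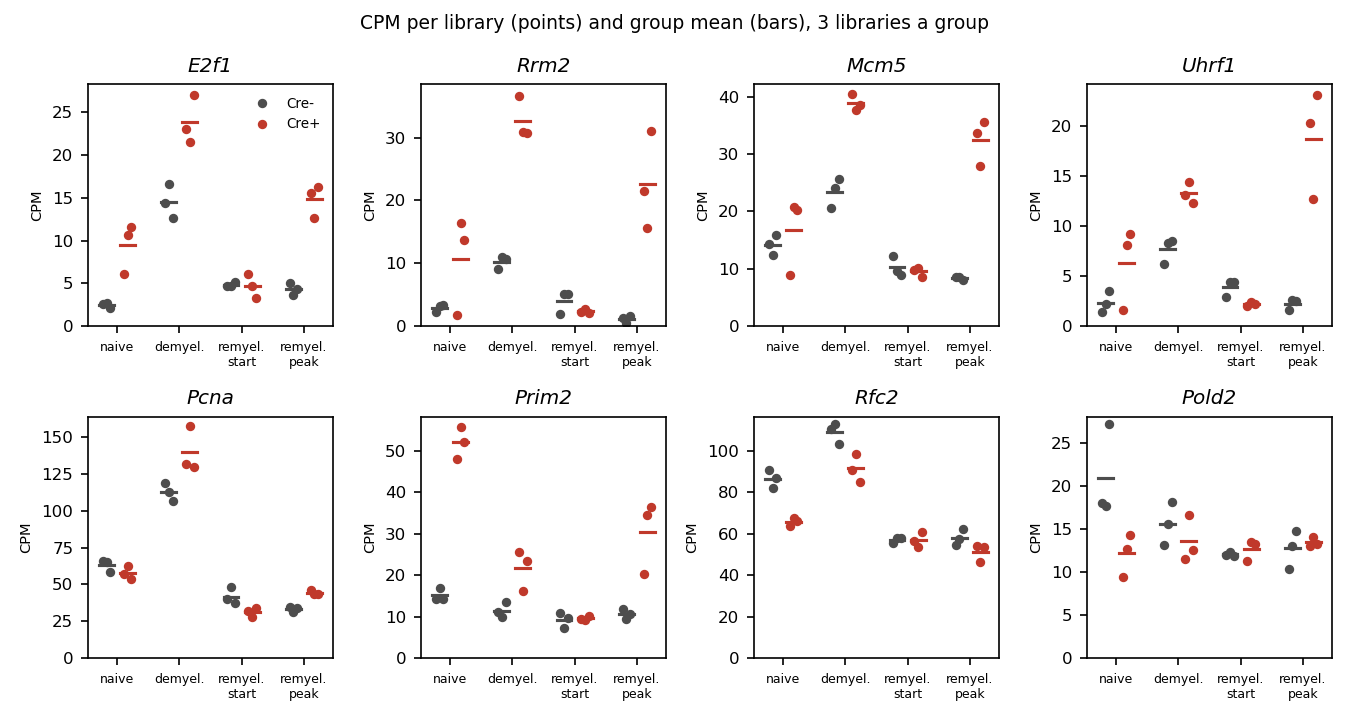
CPM of 8 members in each library (points) with group means (bars), 3 libraries a group, by state on the x axis with Cre- in grey and Cre+ in red, on axes that start at 0. E2f1, Rrm2, Mcm5 and Uhrf1 are higher in Cre+ in demyelination and at the peak, Prim2 is highest in naive Cre+, and Rfc2 and Pold2 are lower in naive Cre+. The demyelination change of Uhrf1 was not called.

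Nearly all origin licensing genes rose at the peak, where 11 of 12 were called higher (median 1.06), against 2 of 12 in naive (median 0.25), 3 of 12 in demyelination (median 0.39) and 0 of 12 after tamoxifen at the start (median -0.10). Of all genes, 6.99% were called higher at the peak, 14.7% in naive and 5.69% in demyelination. The naive count was thus near the share over all genes. The exception at the peak was Orc1, the largest subunit of the origin recognition complex, at 2.27, 1.62 and 1.73 CPM in Cre- and 2.28, 1.81 and 1.505 CPM in Cre+. All members of the Mcm2 to Mcm7 ring, the helicase that unwinds DNA, rose at the peak, by 0.46 (Mcm3) to 1.95 (Mcm5).

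Mcm5 (chromosome 8, 75109569 to 75128439, plus strand) was at 14.3, 12.3 and 15.9 CPM in Cre- and 8.94, 20.8 and 20.3 CPM in Cre+ in naive libraries. Mcm5 was at 20.7, 24.1 and 25.6 CPM in Cre- and 40.53, 37.7 and 38.6 CPM in Cre+ in demyelination. Mcm5 was at 12.3, 9.69 and 8.89 CPM in Cre- and 9.78, 10.2 and 8.64 CPM in Cre+ with tamoxifen at the start and at 8.52, 8.54 and 8.07 CPM in Cre- and 33.7, 27.9 and 35.6 CPM in Cre+ with tamoxifen at the peak. In naive the lowest library was Cre+ replicate 1 and the highest were the other Cre+ replicates, so the groups overlapped. In demyelination and at the peak they did not. The change was 0.73 ± 0.19 (SE, n = 3 per group, edgeR adjusted p = 0.0189) in demyelination and 1.95 ± 0.22 (adjusted p = 4.21e-06) at the peak, where Mcm5 had the smallest p of all members.

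Mcm3 and Mcm6 had the highest CPM of the group. Mcm3 (chromosome 1, 20802968 to 20820312, minus strand) was at 65.9, 75.03 and 77.9 CPM in Cre- and 95.8, 89.05 and 93.9 CPM in Cre+ in demyelination and at 54.3, 62.7 and 73.1 CPM in Cre- and 90.97, 76.7 and 93.3 CPM in Cre+ at the peak. Mcm3 was at 86.8, 80.9 and 101 CPM in Cre- and 70.7, 91.6 and 97.7 CPM in Cre+ in naive and at 66.2, 58.7 and 69.4 CPM in Cre- and 65.4, 58.1 and 58.97 CPM in Cre+ with tamoxifen at the start. The genotypes were apart in demyelination and at the peak and overlapped in the other states. It rose by 0.46 ± 0.12 (SE, n = 3 per group, edgeR adjusted p = 0.0165) at the peak. Mcm6 (chromosome 1, 128331590 to 128359664, minus strand) was at 20.8, 23.3 and 30.3 CPM in Cre- and 23.1, 37.1 and 39.04 CPM in Cre+ in naive libraries. Mcm6 was at 45.4, 44.4 and 51.1 CPM in Cre- and 57.3, 64.99 and 60.9 CPM in Cre+ in demyelination. Mcm6 was at 17.9, 22.8 and 22.4 CPM in Cre- and 22.4, 18.8 and 18.1 CPM in Cre+ with tamoxifen at the start and at 16.2, 17.1 and 19.1 CPM in Cre- and 40.1, 34.3 and 50.3 CPM in Cre+ with tamoxifen at the peak. Its change passed the test at the peak (1.25 ± 0.18, adjusted p = 5.59e-05). The demyelination groups did not overlap either, but the change there did not pass (0.38 ± 0.16, adjusted p = 0.157), and the difference between these states was not tested.

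The loading factors and their inhibitor rose together at the peak. Cdc6, the ATPase that recruits the helicase, was at 1.04, 0.353 and 0.659 CPM in Cre- and 5.11, 3.61 and 7.62 CPM in Cre+, a change of 3.02 ± 0.65 (SE, n = 3 per group, edgeR adjusted p = 0.00438). Cdt1, its loading partner, changed by 0.63 ± 0.19 (adjusted p = 0.0291). Gmnn (chromosome 13, 24751845 to 24761923, minus strand), which encodes the Cdt1 inhibitor geminin, was at 3.73, 4.48 and 3.27 CPM in Cre- and 4.49, 6.52 and 4.58 CPM in Cre+ in naive libraries. Gmnn was at 8.77, 11.8 and 8.65 CPM in Cre- and 18.4, 14.9 and 16.6 CPM in Cre+ in demyelination. Gmnn was at 2.35, 4.27 and 2.60 CPM in Cre- and 2.90, 2.23 and 2.72 CPM in Cre+ with tamoxifen at the start and at 3.03, 2.33 and 2.14 CPM in Cre- and 5.57, 4.64 and 4.796 CPM in Cre+ with tamoxifen at the peak. The Cre+ libraries were higher without overlap in naive, demyelination and peak. The change passed the test in demyelination, 0.77 ± 0.20 (SE, n = 3 per group, edgeR adjusted p = 0.0155), and at the peak, 1.01 ± 0.24 (adjusted p = 0.00751), and not in naive, 0.45 ± 0.21 (adjusted p = 0.113). Mcm10, which helps switch the helicase on, was called higher in naive (1.61), in demyelination (1.63) and at the peak (2.68).

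Among the helicase activators, Gins1 was called higher in naive, demyelination and peak, Cdc45 at the peak, and Gins2 and Gins3 in no state. Gins1 (chromosome 2, 150905400 to 150931280, plus strand), a subunit of the GINS complex, was at 5.60, 6.17 and 4.78 CPM in Cre- and 8.42, 8.29 and 9.77 CPM in Cre+ in naive libraries. Gins1 was at 8.61, 8.64 and 8.37 CPM in Cre- and 16.7, 13.9 and 15.4 CPM in Cre+ in demyelination. Gins1 was at 4.22, 3.47 and 4.70 CPM in Cre- and 4.35, 2.69 and 3.28 CPM in Cre+ with tamoxifen at the start and at 3.503, 3.74 and 3.29 CPM in Cre- and 7.39, 5.505 and 6.02 CPM in Cre+ with tamoxifen at the peak. Its genotypes did not overlap in naive, demyelination and peak, and its naive Cre+ replicate 1 lay with the other Cre+ replicates. The changes were 0.68 ± 0.17 (SE, n = 3 per group, edgeR adjusted p = 0.00355), 0.85 ± 0.17 (adjusted p = 0.00237) and 0.84 ± 0.19 (adjusted p = 0.00497). Gins3, another GINS subunit, was at 7.79, 6.97 and 7.49 CPM in Cre- and 5.76, 9.09 and 7.19 CPM in Cre+ in naive and at 5.64, 8.42 and 6.53 CPM in Cre- and 6.90, 7.97 and 6.48 CPM in Cre+ in demyelination. Gins3 was at 3.53, 4.36 and 4.70 CPM in Cre- and 4.89, 3.28 and 6.48 CPM in Cre+ with tamoxifen at the start and at 4.36, 6.21 and 5.35 CPM in Cre- and 7.30, 5.93 and 6.02 CPM in Cre+ at the peak. Its genotypes overlapped in all 4 states.

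Cdc45, which joins the helicase and GINS into the active unwinding machine, was at 2.58, 2.68 and 3.56 CPM in Cre- and 1.78, 4.20 and 3.88 CPM in Cre+ in naive and at 3.84, 3.77 and 4.92 CPM in Cre- and 7.67, 6.98 and 7.24 CPM in Cre+ in demyelination. Cdc45 was at 2.06, 3.02 and 2.43 CPM in Cre- and 1.76, 1.57 and 1.44 CPM in Cre+ with tamoxifen at the start and at 0.852, 0.635 and 2.55 CPM in Cre- and 6.39, 5.08 and 7.99 CPM in Cre+ at the peak. Its Cre+ libraries were all below the Cre- libraries after tamoxifen at the start, -0.66 ± 0.37 (SE, n = 3 per group, edgeR adjusted p = 0.614), and all above them at the peak, 2.27 ± 0.36 (adjusted p = 0.000171). Gins2 shares 67.3% of its exon bases with Gse1 on the other strand, so its counts are uncertain.

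The sliding clamp and its loader had the smallest median of the 8 role groups at the peak, 0.42. There 2 of 6 were called higher, where 6.99% of all genes were. Pcna, the ring that tethers polymerases to DNA, is often read as a marker of division. It was at 66.03, 65.2 and 58.4 CPM in Cre- and 57.1, 62.2 and 53.96 CPM in Cre+ in naive libraries. Pcna was at 118, 112 and 107 CPM in Cre- and 132, 157 and 129.6 CPM in Cre+ in demyelination. Pcna was at 40.1, 48.00 and 37.2 CPM in Cre- and 32.3, 27.7 and 34.2 CPM in Cre+ with tamoxifen at the start and at 34.9, 31.47 and 34.00 CPM in Cre- and 46.2, 43.4 and 43.4 CPM in Cre+ with tamoxifen at the peak. The Cre+ libraries overlapped the Cre- libraries in naive, were above them in demyelination and at the peak, and were all below them after tamoxifen at the start. The log2 change was -0.13 ± 0.10 (SE, n = 3 per group, edgeR adjusted p = 0.37) in naive, 0.31 ± 0.10 (adjusted p = 0.05), just under the threshold, in demyelination, -0.41 ± 0.11 (adjusted p = 0.219) in the start state and 0.41 ± 0.11 (adjusted p = 0.0144) at the peak. The demyelination call of Pcna was lost when any 1 of the libraries compared was left out. Over the 4 states the Cre- libraries of Pcna (chromosome 2, 132249162 to 132253314, minus strand) spanned 31.5 to 118 CPM.

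The loader subunits Rfc1 to Rfc5 open and close that ring. Rfc5 was called higher at the peak (0.51 ± 0.13, SE, n = 3 per group, edgeR adjusted p = 0.0107) and the other 4 were called higher in no state. Rfc2 (chromosome 5, 134581366 to 134601805, plus strand) was called lower in naive Cre+, against the direction of most called members. It was at 90.95, 82.2 and 86.8 CPM in Cre- and 63.55, 67.8 and 66.04 CPM in Cre+ there, with every Cre+ library below every Cre- library (-0.40 ± 0.08, SE, n = 3 per group, edgeR adjusted p = 0.000985). Rfc2 was at 110.3, 113 and 103 CPM in Cre- and 91.01, 98.6 and 85.2 CPM in Cre+ in demyelination and at 54.6, 57.3 and 62.48 CPM in Cre- and 54.1, 46.4 and 53.9 CPM in Cre+ at the peak. All Cre+ libraries were again below, with -0.25 ± 0.08 (adjusted p = 0.0655) and -0.18 ± 0.09 (adjusted p = 0.209). In the start libraries the values were 55.55, 57.8 and 58.1 CPM in Cre- and 56.52, 53.6 and 60.7 CPM in Cre+, and the groups overlapped. Rfc2 shares 15.1% of its exon bases with Lat2 on the other strand.

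Of the polymerase and primase genes, 1 of 9 was called higher in naive, 2 in demyelination and 6 at the peak. The shares over all genes were 14.7%, 5.69% and 6.99%, so the naive count was not above its share. Both subunits of primase, which lays the RNA primers, were called higher in demyelination and at the peak. The demyelination call of Prim1 was lost when any 1 of the libraries compared was left out. Of the polymerase delta subunits Pold3 was called higher at the peak and Pold1 and Pold2 in no state. Prim2 (chromosome 1, 33453810 to 33669795, minus strand), the large primase subunit, was at 14.3, 17.04 and 14.3 CPM in Cre- and 48.2, 55.8 and 52.3 CPM in Cre+ in naive libraries. Prim2 was at 11.1, 9.86 and 13.53 CPM in Cre- and 25.7, 16.1 and 23.49 CPM in Cre+ in demyelination. Prim2 was at 10.99, 7.29 and 9.65 CPM in Cre- and 9.55, 9.32 and 10.2 CPM in Cre+ with tamoxifen at the start and at 11.9, 9.45 and 10.8 CPM in Cre- and 20.4, 34.7 and 36.48 CPM in Cre+ with tamoxifen at the peak. No Cre+ library overlapped the Cre- libraries in naive, demyelination or peak, and the naive Cre+ libraries were the highest of all 24. The changes were 1.77 ± 0.18 (SE, n = 3 per group, edgeR adjusted p = 3.6e-07), 0.92 ± 0.19 (adjusted p = 0.00316) and 1.51 ± 0.20 (adjusted p = 1.92e-05). Naive Cre+ replicate 1, low for most members, was at 48.2 CPM with its group, so Prim2 did not follow the library order of Rrm2 or Mcm5. Prim1, the catalytic primase subunit, was at 5.98, 6.17 and 5.28 CPM in Cre- and 2.67, 9.86 and 6.81 CPM in Cre+ in naive, with Cre+ replicate 1 lowest, and changed by 0.88 ± 0.26 (adjusted p = 0.0325) in demyelination and 1.35 ± 0.29 (adjusted p = 0.00321) at the peak.

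Pole, the catalytic subunit of the leading-strand polymerase epsilon, was at 1.42, 1.55 and 1.98 CPM in Cre- and 11.3, 7.66 and 7.24 CPM in Cre+ at the peak, 2.40 ± 0.40 (SE, n = 3 per group, edgeR adjusted p = 0.000286), and passed in no other state. Pola1, the catalytic subunit of the polymerase that extends primers, changed by 0.87 ± 0.24 (adjusted p = 0.0171) and Pole2 by 0.99 ± 0.25 (adjusted p = 0.0107) there. Pola2, the partner subunit of Pola1, was at 21.1, 19.4 and 26.6 CPM in Cre- and 19.98, 19.8 and 23.1 CPM in Cre+ in naive and at 25.4, 25.4 and 22.8 CPM in Cre- and 24.2, 21.7 and 18.8 CPM in Cre+ in demyelination. Pola2 was at 20.1, 18.9 and 18.04 CPM in Cre- and 17.2, 18.4 and 19.8 CPM in Cre+ with tamoxifen at the start and at 18.46, 21.52 and 20.3 CPM in Cre- and 22.7, 19.7 and 21.53 CPM in Cre+ at the peak. The genotypes overlapped in all 4 states for Pola2. Pold3 (chromosome 7, 100082111 to 100121565, minus strand), a polymerase delta subunit, was at 42.9, 47.2 and 49.8 CPM in Cre- and 54.1, 52.7 and 50.9 CPM in Cre+ in naive libraries. Pold3 was at 44.3, 42.47 and 44.4 CPM in Cre- and 39.8, 38.8 and 41.7 CPM in Cre+ in demyelination. Pold3 was at 36.6, 34.6 and 38.4 CPM in Cre- and 34.1, 35.95 and 43.2 CPM in Cre+ with tamoxifen at the start and at 39.01, 34.1 and 37.9 CPM in Cre- and 45.8, 46.3 and 50.5 CPM in Cre+ with tamoxifen at the peak. Its Cre+ libraries lay above Cre- in naive and at the peak and below in demyelination, and the test passed at the peak alone (0.36 ± 0.09, adjusted p = 0.0127).

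Pold2 (chromosome 11, 5872180 to 5878292, minus strand), the accessory subunit of polymerase delta, was called lower in naive Cre+. It was at 18.1, 17.7 and 27.1 CPM in Cre- and 9.45, 12.7 and 14.3 CPM in Cre+, with no overlap (-0.78 ± 0.17, SE, n = 3 per group, edgeR adjusted p = 0.00136). Pold2 was at 13.1, 15.6 and 18.2 CPM in Cre- and 11.6, 16.6 and 12.6 CPM in Cre+ in demyelination. Pold2 was at 11.97, 12.4 and 11.9 CPM in Cre- and 11.2, 13.52 and 13.2 CPM in Cre+ with tamoxifen at the start and at 10.4, 13.1 and 14.7 CPM in Cre- and 13.1, 14.02 and 13.3 CPM in Cre+ at the peak. In these 3 states the groups overlapped. Pold1, the catalytic delta subunit, was called in no state.

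Replication protein A coats single-stranded DNA, Fen1 trims the flaps between lagging-strand fragments and Lig1 joins them. Rpa1 and Rpa2, the larger subunits of replication protein A, were called higher in demyelination and at the peak, and Rpa3, the smallest, was called lower in naive. Rpa1 (chromosome 11, 75298166 to 75348324, minus strand) was at 43.53, 44.3 and 72.05 CPM in Cre- and 49.4, 52.53 and 51.04 CPM in Cre+ in naive libraries. Rpa1 was at 37.4, 42.2 and 39.49 CPM in Cre- and 65.9, 46.8 and 54.3 CPM in Cre+ in demyelination. Rpa1 was at 35.04, 36 and 36.7 CPM in Cre- and 32.4, 33.46 and 33.45 CPM in Cre+ with tamoxifen at the start and at 31.8, 34.1 and 38.9 CPM in Cre- and 41.52, 50.3 and 52.00 CPM in Cre+ with tamoxifen at the peak. The Rpa1 genotypes overlapped in naive, were apart with Cre+ higher in demyelination and at the peak, and apart with Cre+ lower after tamoxifen at the start. Rpa2 (chromosome 4, 132768332 to 132778752, plus strand) was at 16.4, 16.7 and 16.4 CPM in Cre- and 17.9, 22.9 and 20.2 CPM in Cre+ in naive libraries. Rpa2 was at 14.8, 16.5 and 18.9 CPM in Cre- and 25.2, 22.1 and 20.9 CPM in Cre+ in demyelination. Rpa2 was at 12.2, 12.7 and 9.39 CPM in Cre- and 8.94, 9.58 and 11.6 CPM in Cre+ with tamoxifen at the start and at 12.3, 10.6 and 9.71 CPM in Cre- and 16.3, 17.2 and 17.49 CPM in Cre+ with tamoxifen at the peak. Both genes had all Cre+ libraries above Cre- in demyelination and at the peak. The changes were 0.49 ± 0.14 (SE, n = 3 per group, edgeR adjusted p = 0.0325) and 0.45 ± 0.15 (adjusted p = 0.0494) for Rpa1. Of the 6 fits that left 1 library out, 5 lost its demyelination call and 4 its peak call.

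The changes of Rpa2 were 0.44 ± 0.13 (SE, n = 3 per group, edgeR adjusted p = 0.0344) in demyelination and 0.65 ± 0.14 (adjusted p = 0.00362) at the peak. Rpa3 (chromosome 6, 8255936 to 8259173, minus strand) was at 10.4, 13.4 and 11.7 CPM in Cre- and 9.13, 9.23 and 7.92 CPM in Cre+ in naive, with all Cre+ libraries below (-0.43 ± 0.15, adjusted p = 0.0352), and the call was lost without any of 5 of the 6 naive libraries. Rpa3 was at 16.3, 15.4 and 15.3 CPM in Cre- and 13.8, 16.51 and 14.3 CPM in Cre+ in demyelination. Rpa3 was at 5.99, 6.58 and 6.96 CPM in Cre- and 5.73, 4.59 and 5.92 CPM in Cre+ with tamoxifen at the start and at 7.01, 4.30 and 4.61 CPM in Cre- and 5.47, 5.33 and 4.98 CPM in Cre+ at the peak. The groups overlapped in demyelination and at the peak, and all Cre+ libraries were below in the start state. Lig1 was called higher in naive (0.69) and at the peak (1.30), and its demyelination change of 0.43 ± 0.20 (adjusted p = 0.195) did not pass. Fen1 was called in no state, and antisense exons of Gm10143 cover 78.8% of its exon bases.

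The 3 genes that restore chromatin behind the fork were all called higher at the peak, where 6.99% of all genes were, with a median of 2.15. Uhrf1 (chromosome 17, 56303321 to 56323486, plus strand), which brings the maintenance methyltransferase to newly copied DNA, was at 1.37, 2.17 and 3.497 CPM in Cre- and 1.64, 8.05 and 9.19 CPM in Cre+ in naive libraries. Uhrf1 was at 6.25, 8.31 and 8.47 CPM in Cre- and 13.1, 14.4 and 12.3 CPM in Cre+ in demyelination. Uhrf1 was at 2.94, 4.36 and 4.45 CPM in Cre- and 1.99, 2.36 and 2.16 CPM in Cre+ with tamoxifen at the start and at 1.61, 2.61 and 2.47 CPM in Cre- and 20.3, 12.7 and 23.04 CPM in Cre+ with tamoxifen at the peak. Naive Cre+ replicate 1 lay among the Cre- libraries while the other Cre+ replicates were above them. Uhrf1 was called higher in naive, a call lost in 4 of the 6 fits that left 1 library out. In demyelination the genotypes did not overlap, but the change was not called. In the start state every Cre+ library was below every Cre- library (-0.85 ± 0.48, SE, n = 3 per group, edgeR adjusted p = 0.608), and at the peak every one was above (3.05 ± 0.45, adjusted p = 0.000172).

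Chaf1a and Chaf1b encode subunits of chromatin assembly factor 1, which places histones on new DNA. Chaf1b (chromosome 16, 93883901 to 93906115, plus strand) was at 2.14, 0.927 and 1.95 CPM in Cre- and 0.702, 3.53 and 3.38 CPM in Cre+ in naive libraries. Chaf1b was at 7.51, 6.98 and 6.62 CPM in Cre- and 9.45, 10.8 and 10.4 CPM in Cre+ in demyelination. Chaf1b was at 1.28, 1.87 and 1.51 CPM in Cre- and 1.45, 1.38 and 1.44 CPM in Cre+ with tamoxifen at the start and at 1.14, 1.69 and 1.07 CPM in Cre- and 2.46, 3.27 and 4.42 CPM in Cre+ with tamoxifen at the peak. Its highest values were in demyelination in both genotypes, and the genotype change passed at the peak alone, 1.36 ± 0.42 (SE, n = 3 per group, edgeR adjusted p = 0.0359), a call lost without any of 5 of the 6 peak libraries. Chaf1a changed by 1.14 ± 0.34 (adjusted p = 0.0362) in demyelination and 2.15 ± 0.38 (adjusted p = 0.000445) at the peak. Its demyelination call was lost when any 1 of the libraries compared was left out. Exons of Ubxn6 on the other strand cover 52.5% of the exon bases of Chaf1a.

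Nucleotide supply genes were called higher in 2 of 5 cases in naive, 4 of 5 in demyelination and 3 of 5 at the peak. The shares over all genes were 14.7%, 5.69% and 6.99%. Rrm2 (chromosome 12, 24708241 to 24714146, plus strand), the S-phase subunit of ribonucleotide reductase, had among the largest changes of all members. It was at 2.20, 3.23 and 3.37 CPM in Cre- and 1.78, 16.3 and 13.8 CPM in Cre+ in naive libraries. Rrm2 was at 9.15, 10.96 and 10.6 CPM in Cre- and 36.6, 30.9 and 30.7 CPM in Cre+ in demyelination. Rrm2 was at 1.86, 5.16 and 5.12 CPM in Cre- and 2.21, 2.69 and 2.08 CPM in Cre+ with tamoxifen at the start and at 1.32, 0.564 and 1.65 CPM in Cre- and 21.4, 15.6 and 31.03 CPM in Cre+ with tamoxifen at the peak. Naive Cre+ replicate 1 was the lowest naive library, although the other naive Cre+ replicates were the highest. In demyelination and at the peak the genotypes did not overlap, and after tamoxifen at the start they did. The change was 1.85 ± 0.51 (SE, n = 3 per group, edgeR adjusted p = 0.0118) in naive, 1.67 ± 0.48 (adjusted p = 0.0386) in demyelination and 4.29 ± 0.65 (adjusted p = 0.000347) at the peak, or 19.6-fold. The demyelination call of Rrm2 was lost in 5 of the 6 fits that left 1 library out, and its naive call without Cre+ replicate 2. Counts in the peak Cre- libraries were 14, 8 and 20.

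Rrm1 (chromosome 7, 102441695 to 102469771, plus strand), the large subunit that is present through the cycle, was more abundant in CPM. It was at 42.98, 43.9 and 54.04 CPM in Cre- and 45.7, 60.6 and 57.9 CPM in Cre+ in naive libraries. Rrm1 was at 37.98, 43.6 and 44.2 CPM in Cre- and 65.3, 63.4 and 62.7 CPM in Cre+ in demyelination. Rrm1 was at 28.4, 32.45 and 29.4 CPM in Cre- and 23.9, 27.6 and 33.1 CPM in Cre+ with tamoxifen at the start and at 25.9, 23.1 and 31.2 CPM in Cre- and 55.7, 51.9 and 60.9 CPM in Cre+ with tamoxifen at the peak. The genotypes were apart in demyelination (0.61 ± 0.12, SE, n = 3 per group, edgeR adjusted p = 0.00334) and at the peak (1.07 ± 0.13, adjusted p = 8.53e-06). Tk1 (chromosome 11, 117815526 to 117826092, minus strand), the thymidine salvage kinase, was at 6.37, 6.33 and 5.31 CPM in Cre- and 8.56, 14.3 and 13.8 CPM in Cre+ in naive libraries. Tk1 was at 10.7, 10.6 and 10.6 CPM in Cre- and 23.2, 21.2 and 17.7 CPM in Cre+ in demyelination. Tk1 was at 6.97, 10.8 and 7.55 CPM in Cre- and 11.6, 8.60 and 8.001 CPM in Cre+ with tamoxifen at the start and at 7.48, 9.03 and 6.42 CPM in Cre- and 17.98, 17.1 and 21.2 CPM in Cre+ with tamoxifen at the peak. All its Cre+ libraries were above Cre- in naive, demyelination and peak, with changes of 1.04 ± 0.19 (SE, n = 3 per group, edgeR adjusted p = 0.000195), 0.96 ± 0.19 (adjusted p = 0.002) and 1.29 ± 0.20 (adjusted p = 0.000103).

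Tyms (chromosome 5, 30058202 to 30073617, minus strand), which makes thymidylate, was at 17.2, 21.1 and 20.52 CPM in Cre- and 13.3, 20.2 and 18.4 CPM in Cre+ in naive libraries. Tyms was at 24.4, 23.48 and 23.1 CPM in Cre- and 31.1, 37.2 and 30.8 CPM in Cre+ in demyelination. Tyms was at 12.3, 18.1 and 12.2 CPM in Cre- and 14.4, 14.3 and 14.1 CPM in Cre+ with tamoxifen at the start and at 15.2, 19.3 and 14.7 CPM in Cre- and 25.1, 19.1 and 20.3 CPM in Cre+ at the peak. It was called higher in demyelination (0.48 ± 0.15, SE, n = 3 per group, edgeR adjusted p = 0.0433) and its genotypes overlapped in the other 3 states. That call was lost when any 1 of the libraries compared was left out. Dut, which removes deoxyuridine triphosphate, was called in no genotype comparison, with 0.54 ± 0.27 (adjusted p = 0.244) in demyelination.

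**Figure D4:**
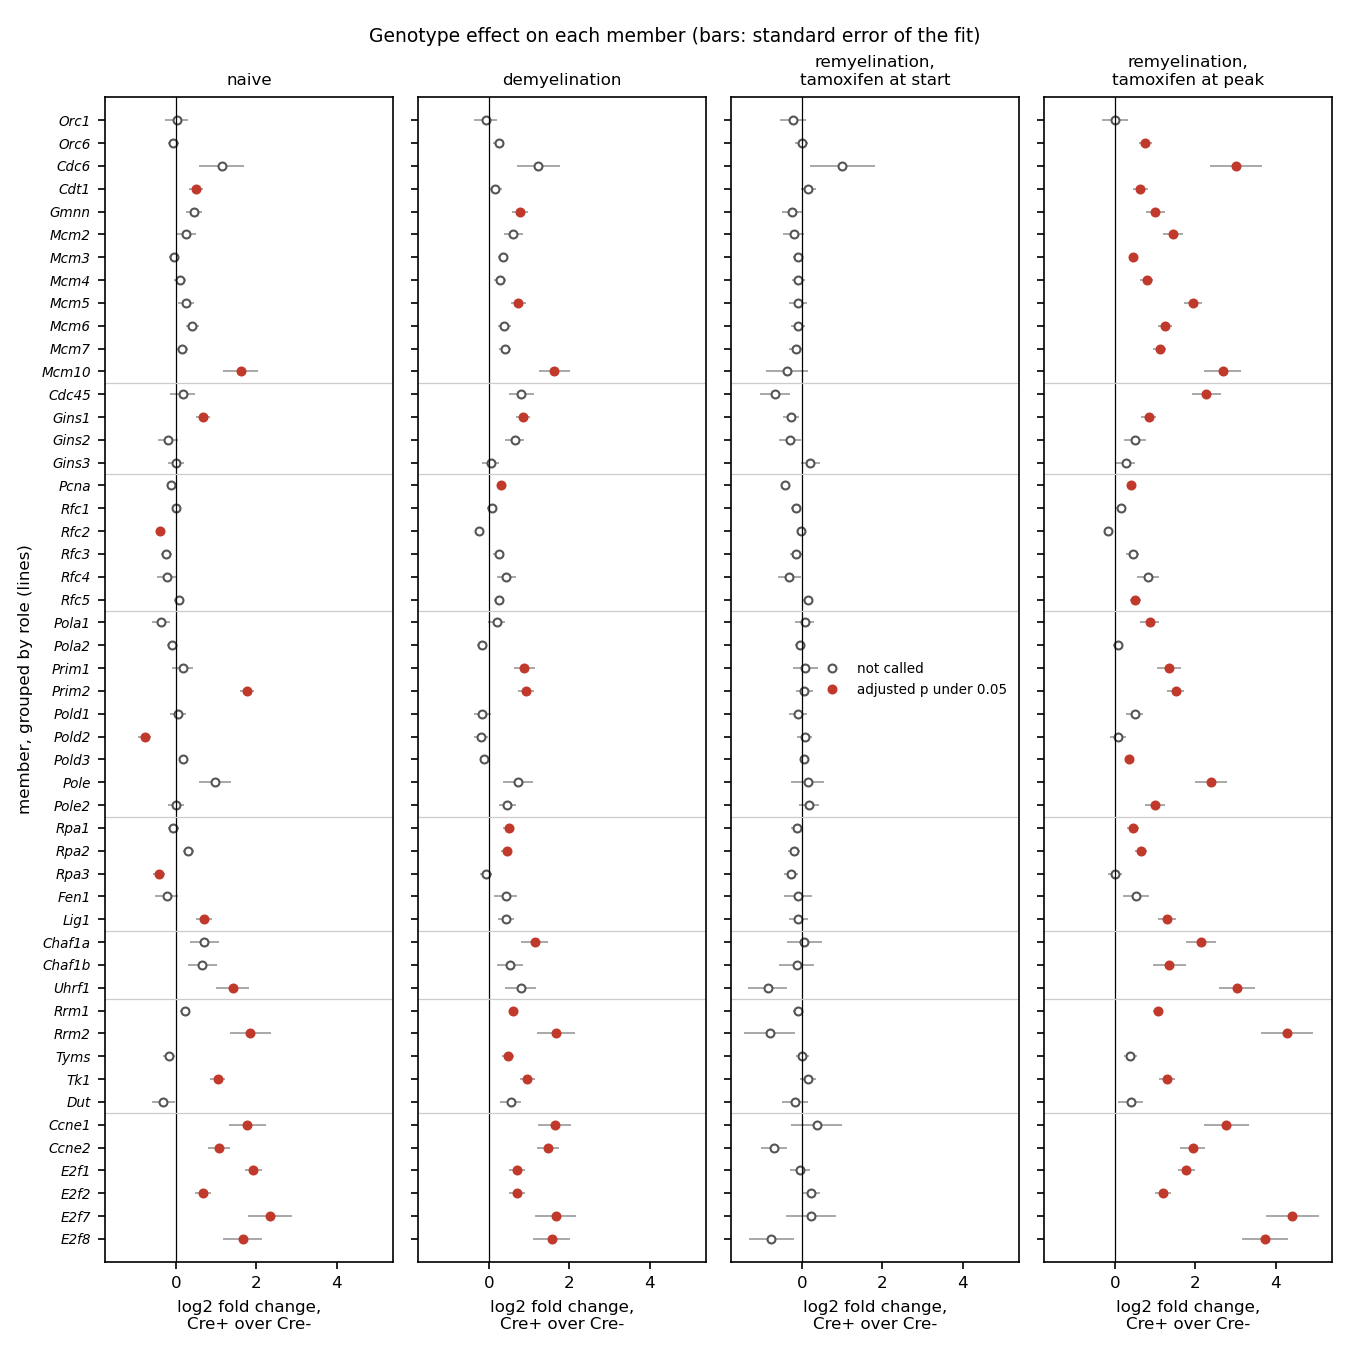
Fitted log2 fold change of each of the 50 members (rows, by role group) between Cre+ and Cre- in each state (panels), with bars for the standard error implied by the F test, open points for members not called and red points for an adjusted p under 0.05. At the peak 36 points are red and all lie to the right of 0, and after tamoxifen at the start 0 are red.

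Over the 3 states with calls, 11 members were called higher in each: Mcm10, Gins1, Prim2, Rrm2, Tk1 and all 6 regulators of the step from G1 to S. Of these, only Gins1, Prim2 and Tk1 kept the call in all 3 states when any 1 library was left out. Another 11 were called higher in 2 of these states and 15 in 1. The 13 called higher in none were Orc1, Gins2, Gins3, Rfc1, Rfc2, Rfc3, Rfc4, Pola2, Pold1, Pold2, Rpa3, Fen1 and Dut. By role, these were 4 of the 6 clamp and loader genes, 3 of the 9 polymerase genes, 2 of the 4 helicase activators, 2 of the 5 single-strand binding, flap and ligation genes, 1 nucleotide gene and 1 licensing gene. All 14 members higher in naive were also higher at the peak, and 19 of the 20 higher in demyelination were; the exception was Tyms. Each of these states had its own Cre- libraries, and all states shared 1 estimate of the spread per gene.

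**Figure D5:**
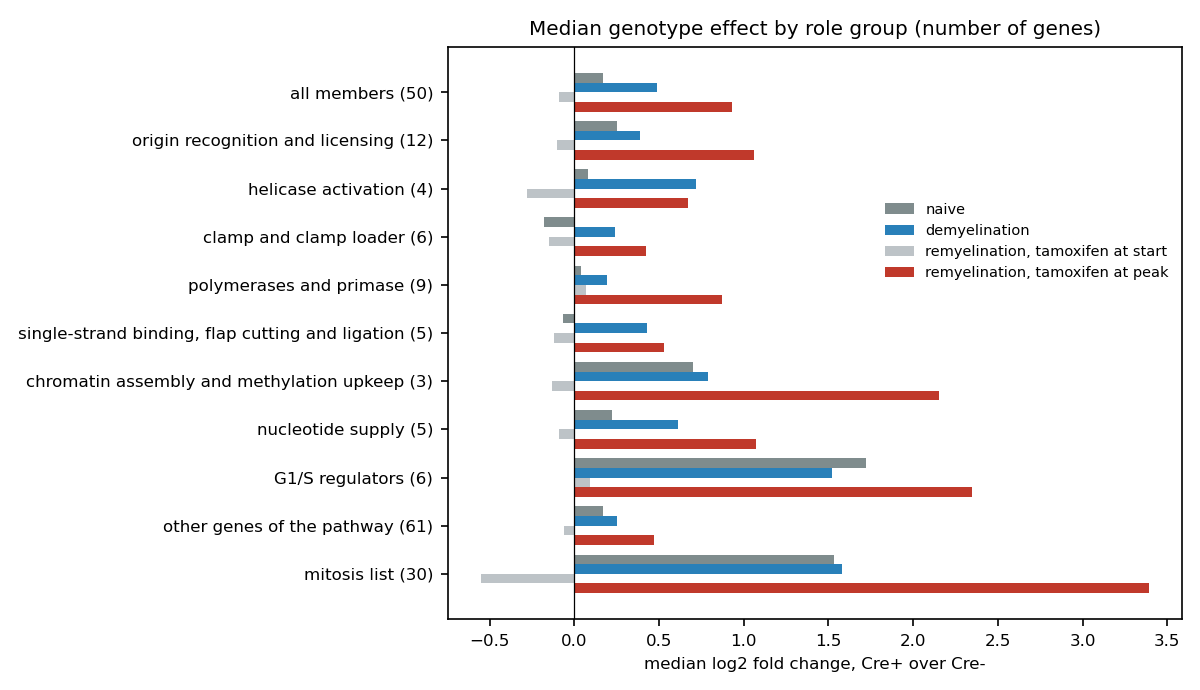
Median fitted log2 fold change between Cre+ and Cre- over the genes of each role group, over 61 other genes of the pathway and over 30 mitosis genes (rows, with the number of genes), in the 4 states (bars, on an axis that includes 0). The regulators of the step from G1 to S have medians of 1.72, 1.52 and 2.35 in naive, demyelination and peak, and the bars of tamoxifen at the start lie between -0.55 and 0.09.

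The difference of the genotype change between states was tested directly. Between demyelination and naive it was called for 4 members, where 7.97% of all genes were called with a larger change in demyelination and 7.78% with a smaller one. The members' counts, 2 and 2 of 50, lay below these shares. The larger ones were Pcna (0.44 ± 0.14, SE, n = 3 per group, edgeR adjusted p = 0.035) and Tyms (0.66 ± 0.21, adjusted p = 0.0347), and the smaller ones Prim2 (-0.85 ± 0.26, adjusted p = 0.0251) and E2f1 (-1.22 ± 0.29, adjusted p = 0.00573). For Prim2 and E2f1 the naive groups were farther apart than the demyelination groups. The count was 1 without demyelination Cre- replicate 3, and 2 without naive Cre+ replicate 1, naive Cre+ replicate 3, demyelination Cre- replicate 2 or demyelination Cre+ replicate 2.

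Between remyelination after tamoxifen at the start and demyelination it was called smaller for 4 members, where 2.94% of all genes were. They were Gins1 (-1.12 ± 0.26, SE, n = 3 per group, edgeR adjusted p = 0.0184), Pcna (-0.72 ± 0.15, adjusted p = 0.0114), Rrm1 (-0.70 ± 0.18, adjusted p = 0.0323) and Ccne2 (-2.16 ± 0.43, adjusted p = 0.0109). The count was 2 without demyelination Cre- replicate 3, demyelination Cre+ replicate 1, start Cre- replicate 2 or start Cre+ replicate 2, and DESeq2 called 15 members. The states also differ in depth and library set.

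Between both tamoxifen timings in remyelination it was called larger at the peak for 23 members and smaller for 0, where 2.87% of all genes were called larger. The median difference over the members was 1.04. Rrm2 had the largest difference (5.09 ± 0.91, SE, n = 3 per group, edgeR adjusted p = 0.00475), ahead of E2f8 (4.51 ± 0.81, adjusted p = 0.00221), E2f7 (4.20 ± 0.95, adjusted p = 0.0132) and Uhrf1 (3.90 ± 0.65, adjusted p = 0.00201). The helicase ring members Mcm2, Mcm4, Mcm5, Mcm6 and Mcm7 were among the 23, with 0.87 (Mcm4) to 2.05 (Mcm5), and Mcm3 was not. These libraries were alike in depth. The count was 16 to 22 when any 1 library was left out.

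The same difference can be read within each genotype. From tamoxifen at the start to the peak, 33 members were called higher in Cre+, where 8.83% of all genes were called higher. In Cre- 0 members were called, where 0.546% of all genes were called in either direction, and 6 had an unadjusted p under 0.05. For E2f1 this is 4.71, 4.71 and 5.12 against 5.02, 3.60 and 4.36 CPM in Cre- and 6.11, 4.66 and 3.28 against 15.51, 12.6 and 16.3 CPM in Cre+, start before peak.

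From naive to demyelination more members rose than fell in both genotypes. In Cre- 22 members were called higher and 1 lower, where 19.7% of all genes were called higher and 16.2% lower, with a member median of 0.52. E2f1 rose most, by 2.55 ± 0.22 (SE, n = 3 per group, edgeR adjusted p = 8.64e-10), followed by Ccne1 (2.24 ± 0.47, adjusted p = 0.000482) and Chaf1b (2.10 ± 0.36, adjusted p = 4.81e-05). Rpa1 fell (-0.43 ± 0.14, adjusted p = 0.0213). Its call was lost without naive Cre- replicate 3, at 72.05 CPM beside 43.53 and 44.31 CPM in the other naive Cre- libraries. It was also lost without demyelination Cre- replicate 1 and when only the groups compared were fitted. In Cre+ 31 were called higher and 2 lower, where 26.3% of all genes were called higher and 25.9% lower, with a median of 0.77. The 2 that fell were Prim2 (-1.26 ± 0.18, adjusted p = 1.78e-06) and Pold3 (-0.39 ± 0.09, adjusted p = 0.000664).

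From demyelination to remyelination after tamoxifen at the start, many members were called lower and 0 higher in either genotype, although 3 had a positive change in Cre- and 1 in Cre+. In Cre- 32 members were called lower, where 28.3% of all genes were, and in Cre+ 43 were, where 30.8% of all genes were. The medians were -0.81 and -1.35. In Cre- E2f2 went from 5.43, 5.92 and 5.63 to 6.58, 7.20 and 8.30 CPM without overlap (0.38 ± 0.21, adjusted p = 0.134), and it was called higher when only the groups compared were fitted. In Cre+ the log2 change of Rrm2 was -3.80 ± 0.57 (SE, n = 3 per group, edgeR adjusted p = 1.6e-05) and that of Pcna -2.15 ± 0.11 (adjusted p = 1.37e-14), and in Cre- they were -1.33 ± 0.55 (adjusted p = 0.0497) and -1.43 ± 0.10 (adjusted p = 3.76e-11). The Cre- call of Rrm2 was lost without any 1 of the 6 libraries compared. The counts were 26 to 31 in Cre- and 41 to 43 in Cre+ when any 1 library was left out. The depth and library set changed with the state in this comparison, so their part cannot be told apart from that of the state.

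Promoters were examined because E2F proteins are known to bind upstream of replication genes. RefSeq promoters on GRCm38.p6, from 250 bases before to 50 after the start, were matched for 42 of the 50 members and gave 49 promoters. Those of Gmnn, Mcm4, Gins1, Gins2, Rfc2, Prim2, Pole and Ccne2 were not matched. The E2F consensus was searched as TTTCCCGC, TTTCGCGC, TTTGCCGC or TTTGGCGC on both strands. It stood in 17 of the 49 member promoters (34.7%) and in 744 of all 32851 promoters of that length (2.26%). In the 250 upstream bases alone it stood in 20.4% of member promoters and 1.86% of all. The letters CCAAT, on both strands, stood in 59.2% of member promoters and 37.4% of all. Member promoters also had more G and C, with a median of 61.3% against 52.7%.

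The windows below show the upstream match of 3 members called higher at the peak and of 2 called in no state, in 5′ to 3′ direction of the gene, with the match in capitals. Mcm5 lies at chr8:75109326-75109397 on the plus strand and its capitals hold overlapping matches on both strands; Cdc6 at chr11:98907983-98908050 (plus); Uhrf1 at chr17:56304098-56304165 (plus); Orc1 at chr4:108579397-108579453 (plus); Rfc3 at chr5:151651209-151651248 (minus).
Mcm5: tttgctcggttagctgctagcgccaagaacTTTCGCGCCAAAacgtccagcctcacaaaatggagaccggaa
Cdc6: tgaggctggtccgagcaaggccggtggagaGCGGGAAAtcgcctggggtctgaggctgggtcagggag
Uhrf1: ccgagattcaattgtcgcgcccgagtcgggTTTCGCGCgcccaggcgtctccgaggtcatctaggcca
Orc1: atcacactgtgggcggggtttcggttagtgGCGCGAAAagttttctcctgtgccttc
Rfc3: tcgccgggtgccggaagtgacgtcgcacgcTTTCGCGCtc

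The share with a match did not follow the calls in an ordered way. It was 2 of 9 promoters (22.2%) for members called higher in naive, demyelination and peak, 11 of 27 (40.7%) for those called higher in 1 or 2 of these states, and 4 of 13 (30.8%) for those called higher in none. A match describes letters and not binding.

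Dicer1 cuts miRNA precursors, so 3′ UTRs were searched for sites that match the seed of 6 miRNAs known in microglia or the cell cycle. A site is the reverse complement of bases 2 to 8 of the miRNA, and 49 members and 13404 genes had a 3′ UTR of at least 50 bases in GENCODE M21. Member UTRs were shorter, with a median of 780 bases against 1191. let-7a-5p, whose family holds back proliferation in many cells, had a site in 4 members (8.16%) and in 10.7% of genes. The shares were 16.3% and 24.4% for miR-16-5p, 14.3% and 14.3% for miR-17-5p, 20.4% and 17.3% for miR-34a-5p, 10.2% and 19.3% for miR-24-3p, and 8.16% and 9.34% for miR-155-5p.

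The let-7 sites are shown because they lie in genes with some of the largest and smallest changes above. The mature let-7a-5p sequence is from RefSeq with the seed in capitals, and each site is given with its 3′ UTR neighbours and the match in capitals. They start at base 130 of the Rrm2 UTR, base 17 of that of E2f2 (which has another at base 2925), base 2162 of that of E2f7 and base 4 of that of Pold3.
let-7a-5p: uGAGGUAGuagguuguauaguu
Rrm2: aaagctgtgtagCTACCTCagtcctgtttg
E2f2: tcctgcatctgtCTACCTCctcacagacag
E2f7: tgaggggatgtgCTACCTCaaaccatgcca
Pold3: atgCTACCTCtgaaaggactc

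Of these 4, 3 were called higher in naive, 3 in demyelination and 4 at the peak, against 11, 17 and 32 of the 45 members without such a site. miR-17-5p sites stood in 7 members, Mcm3, Mcm7, Rpa2, Chaf1a, Rrm2, E2f1 and E2f2, of which 3, 5 and 7 were called higher in the same order, against 11, 15 and 29 of 42 without. For miR-16-5p, with Ccne1 and Cdc6 among its 8 members, the counts were 2, 4 and 6, against 12, 16 and 30 of 41. They were 2, 5 and 7 of 10 for miR-34a-5p, against 12, 15 and 29 of 39. For miR-24-3p they were 1, 2 and 4 of 5, against 13, 18 and 32 of 44, and for miR-155-5p 2, 1 and 4 of 4, against 12, 19 and 32 of 45. No test of these counts was made. The annotated exons of Mcm7 overlap the miRNA genes Mir25 and Mir93 on the same strand, which share 1.90% and 1.99% of its exon bases. miRNAs themselves are not analysed here.

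The pathway around the members was counted in the same way. Of 61 other genes of replication and its control, 15 were called higher and 3 lower in naive, 8 higher and 0 lower in demyelination, 0 after tamoxifen at the start, and 28 higher and 0 lower at the peak. The medians were 0.17, 0.25, -0.06 and 0.47. The shares of all genes called higher were 14.7%, 5.69% and 6.99% in naive, demyelination and peak, and 13.7% were called lower in naive. The 15, 8 and 28 of 61 called higher lay above these shares, and the 3 called lower in naive lay below theirs. Most of the 61 were still not called in naive (43) and in demyelination (53). At the peak the largest changes were those of Ticrr, which helps load Cdc45 (3.21 ± 0.48, SE, n = 3 per group, edgeR adjusted p = 8.5e-05), Ccna2, the S-phase cyclin A (3.10 ± 0.41, adjusted p = 8e-05), Dtl, which directs Cdt1 to degradation (2.84 ± 0.49, adjusted p = 0.000687), and Clspn, a replication checkpoint adaptor (2.80 ± 0.44, adjusted p = 0.000124). Clspn was at 0.473, 0.423 and 0.576 CPM in Cre- and 3.19, 3.70 and 3.48 CPM in Cre+ there. Cdkn1a, which encodes the cell cycle inhibitor p21, rose with them. It was at 7.95, 9.88 and 10.54 CPM in Cre- and 58.3, 42.49 and 44.95 CPM in Cre+ at the peak, a change of 2.35 ± 0.25 (SE, n = 3 per group, edgeR adjusted p = 7.46e-06). The genotypes did not overlap there, and Cdkn1a was called in no other state. In demyelination it was at 85.6, 93.8 and 76.4 CPM in Cre- and 141.6, 106.4 and 117.8 CPM in Cre+. These groups did not overlap either, and both lay above the peak Cre+ values.

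In naive the other pathway genes included Donson, a helicase assembly factor (1.45 ± 0.17, SE, n = 3 per group, edgeR adjusted p = 2.77e-06), and Cdkn1b, the inhibitor p27 (0.88 ± 0.15, adjusted p = 8.44e-05). The 3 called lower in naive were the ribonuclease H2 genes Rnaseh2a (-0.43 ± 0.11, adjusted p = 0.00379) and Rnaseh2c (-0.39 ± 0.13, adjusted p = 0.0283), and Shmt1 (-0.57 ± 0.19, adjusted p = 0.0266), which feeds thymidylate synthesis.

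Mitosis genes were called in the same 3 states. Of 30 genes of mitosis, 30 were called higher in naive, demyelination and peak, with medians of 1.53, 1.58 and 3.39, and 0 after tamoxifen at the start, with a median of -0.55. Every Cre+ library was above every Cre- library for 4 of the 30 in naive, where 19.7% of all genes were, and for 30 in demyelination and at the peak. The mean of log2(CPM + 0.5) over the 30 genes was 1.35 in naive Cre+ replicate 1, below every naive Cre- library, and 3.34 and 3.21 in the other naive Cre+ replicates. Mki67, the proliferation marker Ki-67, was at 2.80, 3.63 and 4.65 CPM in Cre- and 3.46, 18.2 and 18.4 CPM in Cre+ in naive libraries. Mki67 was at 7.18, 6.42 and 7.95 CPM in Cre- and 26.9, 28.9 and 27.8 CPM in Cre+ in demyelination. Mki67 was at 4.12, 7.20 and 6.63 CPM in Cre- and 2.75, 3.54 and 2.16 CPM in Cre+ with tamoxifen at the start and at 1.99, 2.26 and 3.05 CPM in Cre- and 51.1, 50.8 and 49.3 CPM in Cre+ with tamoxifen at the peak. Naive Cre+ replicate 1 lay within the Cre- range and the other naive Cre+ replicates above it. The median over the members at the peak, 0.93, was below that of the mitosis list, and the 6 regulators of the step from G1 to S, at 2.35, lay between them. This is a description of the medians, and the difference between the lists was not tested.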

How the data were processed

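RNA from sorted microglia was sequenced in 24 libraries. The authors deposited whole-number counts per Ensembl gene; per the submitters' processing notes, Trimmomatic 0.36, STAR 2.5.2b, featureCounts of Subread 1.5.2, DESeq2 and GRCm38 were used, and the strand setting is not given in the sources used here. Identifiers were paired with symbols, positions and exon lengths through GENCODE M21 (49056 matched, 259 did not). From the counts, genes with too few reads were removed (filterByExpr), libraries were scaled by TMM, and 1 edgeR 4.0.16 quasi-likelihood model (R 4.3.3) with a mean per group was fitted over all 24 libraries (16 residual degrees of freedom, robust). The 13 comparisons were contrasts of it, with Benjamini-Hochberg adjustment over all 17579 genes and a threshold of 0.05. Each SE is the one implied by the quasi-likelihood F test, the absolute log2 change over the square root of F. CPM are TMM-scaled. The script was tested on simulated data.

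The members and lists were chosen with earlier results of these data known. Values in every library are given for the 2 members of highest mean CPM in each role group, the 4 of smallest p in each genotype comparison, members called against the majority, and Rrm2, Gmnn and E2f1; some others were named for their values. Alternatives were DESeq2 1.42.0, its size factors, no filter on low counts, only the groups compared, a replicate block, GC content and length offsets, each library left out, and the 3 libraries of low Cx3cr1 left out. Depth was 8.87 to 44.53 M counts a library, so genes with few reads, such as E2f7 and Rrm2 in some Cre- libraries, have wide errors. The p-values rest on 1 estimate of the spread between samples per gene, shared by all 8 groups, and not on the groups compared alone. Overlapping antisense genes cannot be told apart without the strand setting.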

Additional observations from a re-analysis of the deposited data

Results flagged for a closer look

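A test of the difference itself, an interaction term in the edgeR model, separated the genotype change of some members between states. Values here are differences of log2 changes, Cre+ minus Cre-, with an adjusted p under 0.05. From naive to demyelination the change differed for Pcna (0.44), Prim2 (-0.85), Tyms (0.66) and E2f1 (-1.22). These are 2 larger and 2 smaller of 50, below the 7.97% and 7.78% of all genes called, and with 1 library left out the count of 4 ranged from 1 (without demyelination Cre- replicate 3) to 6 (without naive Cre+ replicate 2). It was 2 without naive Cre+ replicate 1 or 3, demyelination Cre- replicate 2 or demyelination Cre+ replicate 2. From demyelination to remyelination after tamoxifen at the start it differed for Gins1 (-1.12), Pcna (-0.72), Rrm1 (-0.70) and Ccne2 (-2.16). Between tamoxifen at the peak and at the start it was larger at the peak for 23 members. Among the licensing genes the differences were Gmnn (1.25), Mcm2 (1.63), Mcm4 (0.87), Mcm5 (2.05), Mcm6 (1.34), Mcm7 (1.27) and Mcm10 (3.06). Among the helicase activators and the clamp the differences were Cdc45 (2.92), Gins1 (1.11) and Pcna (0.82). Among the polymerase, primase, single-strand binding and ligation genes the differences were Prim2 (1.46), Pole (2.26), Rpa2 (0.83) and Lig1 (1.38). Among the chromatin genes the differences were Chaf1a (2.09) and Uhrf1 (3.90). Among the nucleotide genes the differences were Rrm1 (1.16), Rrm2 (5.09) and Tk1 (1.14). Among the regulators of the step from G1 to S the differences were Ccne2 (2.63), E2f1 (1.83), E2f7 (4.20) and E2f8 (4.51).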

How the results depend on the processing

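The genotype calls of members numbered 73 (17 in naive, 20 in demyelination and 36 at the peak). Each was refitted without each of its 6 libraries, 438 checks in all, and lost in 112 of them. Under the 7 other alternatives, 511 checks, it was lost in 39. Among these, 0 changed sign. With only the groups compared, 11 members were called in naive. Without the 3 libraries of low Cx3cr1, 4 were called in demyelination and 1 (Rrm2, lower) between the tamoxifen timings in Cre-. DESeq2 called 1 after tamoxifen at the start. For the difference of the genotype change between demyelination and naive, DESeq2 called 8 and the fit with no filter on low counts 7. Between tamoxifen at the start and demyelination these gave 15 and 12, only the groups compared 13, and GC content and length offsets 7. The cause was not tested. The mean score difference was 0.44 in demyelination and 0.83 at the peak with an offset of 2 CPM, and -0.13 after tamoxifen at the start as z scores. The E2F consensus stood in 20.4% of member promoters with only the 250 bases upstream.

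Leaving out each library in turn gave 10 to 25 called members in naive, 6 to 15 in demyelination, 0 after tamoxifen at the start and 29 to 35 at the peak. The differences between states gave 1 to 6, 2 to 6 and 16 to 22. Counts were low without different single libraries, named beside the results. To check pairing, each gene's group mean was subtracted, over genes with a mean log2 level above 3. What was left was correlated between the Cre- and Cre+ libraries of a state. These correlations describe departures from the group mean and not the likeness of whole libraries. For the same replicate number they were -0.18, 0.08 and 0.27 in naive and -0.28, -0.07 and -0.41 in demyelination. They were 0, -0.17 and -0.12 in the start state and 0.26, 0.08 and 0.18 at the peak. At the peak each library correlated best with its own number, a hint from the data, but 1 pair was not over 0.1, so the numbers are not taken to pair samples. With a replicate block 18, 20, 0 and 36 members were called in naive, demyelination, start and peak, and 3, 6 and 21 for the differences. Remyelination libraries were the shallowest, which limits members of few reads.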
